A study of Mus musculus with 6 samples.

Results

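The mitochondrial ribosomal protein genes were compared between parental CT26.mMR1 cells and their mutant M8. They were taken as every gene symbol made of Mrpl or Mrps, a number and an optional letter, with a mean of at least 1 FPKM over the 6 samples, where FPKM counts sequenced fragments relative to the length of the exons and to the size of the library. Of the 24346 gene symbols in the data, 77 had such a name, and all 77 passed the minimum, with 48 named for the large subunit and 29 for the small subunit. None was near the minimum, since the lowest mean was 6.93 FPKM (Mrpl41). The rule used the names and the mean over both lines, and not the difference between them. The lines were compared in the study to find genes that differ in a mutant with a stronger agonistic activity toward MAIT cells.

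CT26 is a mouse colorectal tumor cell line, and in CT26.mMR1 it had been transduced with mouse MR1 by a retrovirus, so that both lines carried the transgene. M8 was obtained from CT26.mMR1 with the mutagen N-ethyl-N-nitrosourea (ENU) and was picked because it activated a MAIT cell reporter line more strongly and had more MR1 on its surface. The sample titles call the parental cells CT26_cl9 and the mutant CT26_cl9_M8. M8 is a single mutant line, so an effect of the mutagen on these genes cannot be told apart from other differences between these 2 lines. RNA was sequenced from 3 samples of each line, which the study describes as biological replicates. The sources used here do not say how these were grown, and the p-values measure the spread between these samples. The FPKM values summed to between 593635 and 630264 per sample, and the relative depth recovered from the values of weakly expressed genes was 0.948 to 1.072 in the parental samples and 0.772 to 0.875 in M8. Transcripts of Mr1, which include the transgene, were at 1046 to 1139 FPKM in parental cells and at 1034 to 1095 FPKM in M8 (limma adjusted p = 0.615). The labels give colon as the tissue. Of 7 epithelial markers only Krt18 had a mean of at least 1 FPKM, Epcam, Cdh1 and Krt19 were at 0 in every sample, and all 5 mesenchymal markers were above that level. Leukocyte markers summed to at most 0.05 FPKM and endothelial markers to at most 0.052 FPKM per sample.

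Mitochondria translate the few proteins encoded by their own DNA, all of them subunits of the respiratory chain and ATP synthase, on a ribosome of their own. The RNA of this ribosome is encoded in the mitochondrial genome, whereas its proteins are encoded in the nucleus, made in the cytosol and imported. The small subunit binds and decodes the mRNA, and the large subunit forms peptide bonds and releases the chain at the inner membrane. Some of the proteins have homologues in the bacterial ribosome, and others are found in mitochondria alone. The names do not match the place of the protein in every case. The products of Mrps30 and Mrps18a sit in the large subunit, and that of Mrps36 is now known as a component of the 2-oxoglutarate dehydrogenase complex.

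Most genes of both subunits had slightly higher FPKM values in M8, and a minority of them passed the test, nearly all upwards. In limma's test on log2(FPKM + 1) across 10597 genes, with a gene called higher or lower at a Benjamini-Hochberg adjusted p below 0.1, 24 of the 77 members (31.2%) were higher in M8 and 4 (5.19%) were lower. Of all genes tested, 21.2% were higher and 16.5% lower, which is 37.7% in either direction, against 36.4% of the members. The share called was thus close to the background, while the calls were split into 24 higher and 4 lower among the members and into 2250 and 1745 among all genes. Among the 7430 genes with a mean FPKM within the range of the members, 26.1% were higher and 15.2% were lower, so that the share of higher members was closer to the share at their own level. The median log2 fold change was 0.08 over the members, a ratio of 1.06, and 0.0069 over all genes tested. Over the genes within the members' range of levels the median was 0.03. With the values rescaled to TPM, quantile normalized or scaled to the upper quartile, the members gave 18 higher and 5 lower, 18 and 6, and 16 and 5 calls, and their median moved to 0.046, 0.025 and 0.022. The direction of the median remained the same under these scalings, with medians of all genes at -0.028, -0.0009 and -0.049. The calls over all genes moved to 1658 higher and 2209 lower with TPM, to 1820 and 1773 with quantile normalization and to 1470 and 2769 with upper-quartile scaling.

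The large and the small subunit gave similar results. Of the large subunit genes, 15 of 48 (31.3%) were higher in M8 and 3 were lower, with a median log2 fold change of 0.08. Of the small subunit genes, 9 of 29 (31.0%) were higher and 1 was lower, with a median of 0.09. With the genes sorted by the place of the protein in the ribosome, the counts were 16 higher and 3 lower of 50 in the large subunit, and 8 higher and 0 lower of 26 in the small subunit. Every M8 value exceeded every parental value in 18 large and 9 small subunit genes, which is 35.1% of the members, compared with 24.8% of all genes tested and 30.1% of those within the members' range of levels. Every M8 value was below every parental value in 1 gene of each subunit (Mrpl23 and Mrps21), against 20.4% of all genes tested. The changes were small. On the log2(FPKM + 1) scale, 3 large and 5 small subunit genes were called with a change of at least 1.2-fold, which is 10.4% of the members, compared with 14.9% of all genes tested and 13.9% of those within the members' range of levels. By the ratio of mean FPKM, Mrpl3 (1.206) and Mrps34 (1.202) reached it too, and the ratios of the 24 higher genes ran from 1.08 to 1.5.

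**Figure D1:**
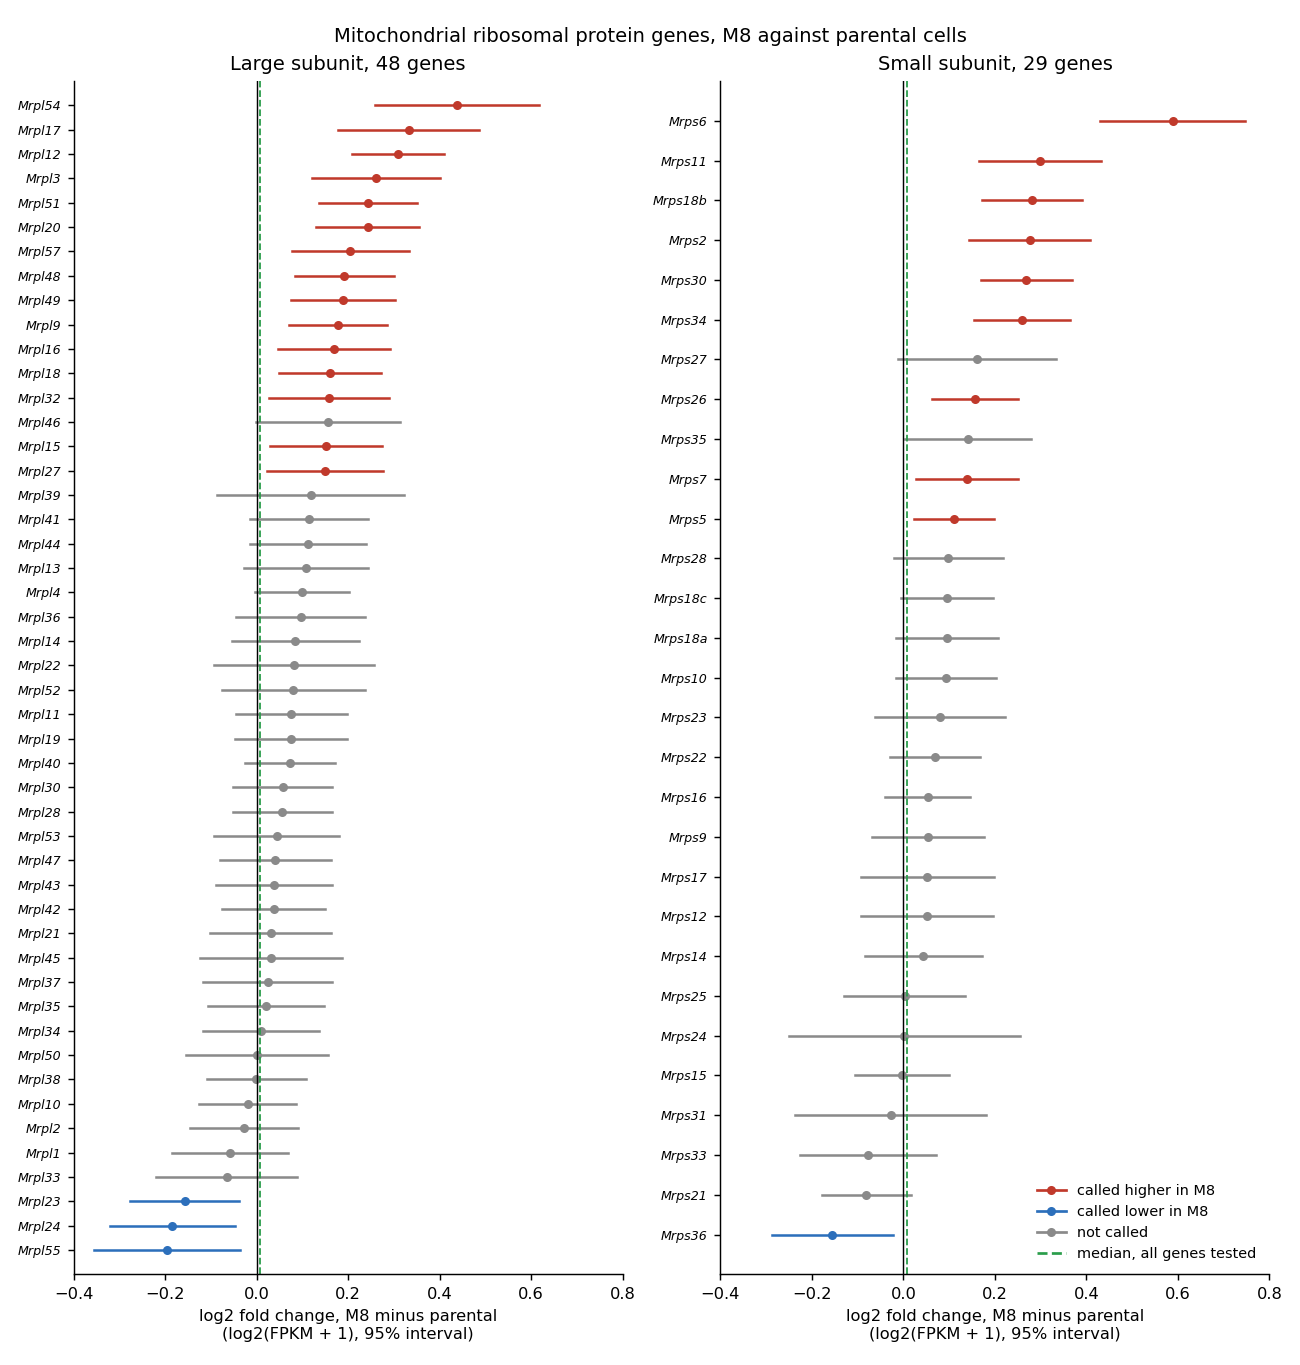
Log2 fold change (M8 minus parental, on log2(FPKM + 1)) of each of the 77 genes, with its 95% interval from limma, for the large subunit (left) and the small subunit (right). Red points are called higher in M8, blue lower and grey not called, and the dashed line is the median of all genes tested. In each subunit most points lie to the right of 0, and Mrps6 (0.59) and Mrpl54 (0.44) stand farthest out.

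Promoter sequences are shown for the members that rose or fell most, so that the letters of these windows can be compared with the motifs of factors known for mitochondrial genes. RefSeq (GRCm38.p6) gave a window from 250 bases before to 50 bases after the start for 68 of the 77 members. There was none for Mrpl54, which rose most in the large subunit, so Mrpl17 stands in its place, and Mrps11 and Mrps18b were added after their values were seen. Each is written 5′ to 3′ on the strand of the gene, with the matches to 5 short motifs in capitals. The motifs, searched on both strands, were GCATGCGC for NRF1, AAGATGGCG for YY1, CCGGAAG for GABPA and other ETS factors, GGGCGG for SP1 and CACGTG for the E-box.
Mrpl17 (chr7:105811038-105811337, minus strand): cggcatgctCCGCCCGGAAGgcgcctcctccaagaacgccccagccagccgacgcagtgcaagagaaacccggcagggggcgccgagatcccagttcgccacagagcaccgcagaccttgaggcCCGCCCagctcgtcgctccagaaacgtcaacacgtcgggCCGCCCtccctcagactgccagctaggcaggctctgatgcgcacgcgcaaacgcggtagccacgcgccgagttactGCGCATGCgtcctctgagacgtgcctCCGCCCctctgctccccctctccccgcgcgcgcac
Mrpl55 (chr11:59202236-59202535, plus strand): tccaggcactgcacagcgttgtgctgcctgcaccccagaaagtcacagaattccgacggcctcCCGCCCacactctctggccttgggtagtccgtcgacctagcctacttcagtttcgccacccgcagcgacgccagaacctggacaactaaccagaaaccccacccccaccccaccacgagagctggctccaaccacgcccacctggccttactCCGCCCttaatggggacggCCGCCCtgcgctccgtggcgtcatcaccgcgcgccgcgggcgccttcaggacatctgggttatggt
Mrps6 (chr16:92058086-92058385, plus strand): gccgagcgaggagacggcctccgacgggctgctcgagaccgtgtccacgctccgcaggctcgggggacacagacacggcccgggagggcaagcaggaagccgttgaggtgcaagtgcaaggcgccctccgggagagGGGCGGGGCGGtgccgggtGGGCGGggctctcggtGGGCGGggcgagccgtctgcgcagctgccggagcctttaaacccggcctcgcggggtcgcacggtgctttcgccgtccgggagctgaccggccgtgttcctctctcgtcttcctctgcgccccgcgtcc
Mrps18b (chr17:35916391-35916690, minus strand): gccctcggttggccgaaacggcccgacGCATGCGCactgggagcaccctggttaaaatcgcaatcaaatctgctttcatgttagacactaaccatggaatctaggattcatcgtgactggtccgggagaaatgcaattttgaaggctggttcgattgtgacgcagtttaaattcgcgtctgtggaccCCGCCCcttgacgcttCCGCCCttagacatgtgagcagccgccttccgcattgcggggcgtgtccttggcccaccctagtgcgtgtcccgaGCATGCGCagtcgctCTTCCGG
Mrps11 (chr7:78782881-78783180, plus strand): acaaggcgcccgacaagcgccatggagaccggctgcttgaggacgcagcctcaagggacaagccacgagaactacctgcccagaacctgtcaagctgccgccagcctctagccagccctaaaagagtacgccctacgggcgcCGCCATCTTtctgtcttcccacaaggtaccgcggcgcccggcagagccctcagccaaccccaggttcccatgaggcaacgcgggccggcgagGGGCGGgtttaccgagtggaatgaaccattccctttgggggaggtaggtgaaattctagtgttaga
Mrps36 (chr13:100744610-100744909, minus strand): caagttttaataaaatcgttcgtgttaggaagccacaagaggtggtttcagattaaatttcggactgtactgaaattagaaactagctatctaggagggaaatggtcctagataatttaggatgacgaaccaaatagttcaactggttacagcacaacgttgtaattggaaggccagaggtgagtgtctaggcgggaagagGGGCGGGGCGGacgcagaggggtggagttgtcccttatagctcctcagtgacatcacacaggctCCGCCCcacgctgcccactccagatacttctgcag

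Among these windows, Mrps18b held 2 matches of the NRF1 motif, 1 of the ETS motif and 2 of the SP1 motif, and Mrpl17 held 1, 1 and 4. In Mrpl17 a match of the SP1 and one of the ETS motif run into each other. Mrps6 held 4 matches of the SP1 motif and Mrps36 and Mrpl55 held 3 each, and none of the 3 held the NRF1, YY1 or ETS motif. Mrps11 held 1 match of the YY1 and 1 of the SP1 motif. Over the family, the NRF1 motif was in 8 of 68 members (11.8%) against 6.58% of the tested genes and 3.05% of all genes with a window. The YY1 motif was in 8 (11.8%, against 4.13% and 1.64%), and the ETS motif in 25 (36.8%, against 22.3% and 9.93%). The SP1 motif was found in 34 members (50%), fewer than among the tested genes (71.4%) and more than among all genes (38.2%), and the E-box in 5 (7.35%, against 12.2% and 8.09%). Of the 21 members called higher with a window, 13 held the SP1, 9 the ETS, 4 the NRF1, 1 the YY1 motif and 1 the E-box. A match describes the letters in a window and does not show that a factor binds there.

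Mrps6 rose more than any other member. Its product is the homologue of bacterial S6 and lies on the platform of the small subunit. The 3 parental samples had 131, 156 and 156 FPKM and the 3 M8 samples had 225, 232 and 209.7 FPKM. Every M8 value was thus above every parental value, and the mean went from 148 ± 14.7 to 222 ± 11.3 FPKM (SD, n = 3 each), a ratio of 1.5 and a log2 fold change of 0.59 (95% interval 0.43 to 0.75, limma adjusted p = 0.00074). Mrps6 lies on the plus strand of chromosome 16 (92058270 to 92112227 in GRCm38, GENCODE M21) and has 159 exon bases in common with Slc5a3, a myo-inositol transporter gene on the same strand. Slc5a3 had a mean of 3.52 FPKM and a log2 fold change of -0.06. Part of the exons is also annotated to the predicted gene Gm49711, which was not analysed here.

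In the small subunit, Mrps11, Mrps18b, Mrps2, Mrps30 and Mrps34 followed, with log2 fold changes from 0.30 to 0.26. Mrps11, the homologue of bacterial S11, had 15.8, 14.3 and 15.4 FPKM in parental cells and 19.5, 19.6 and 17.6 FPKM in M8. Mrps2, the homologue of S2, was at 30.3, 30.2 and 28.8 FPKM and at 39.6, 35.5 and 33.9 FPKM. The groups of these genes did not overlap, and the differences were 0.30 (limma adjusted p = 0.0063) and 0.28 (limma adjusted p = 0.0084). Mrps34 encodes a small subunit protein without a bacterial homologue. Its values were 33.8, 33.1 and 35.8 FPKM in parental cells and 40.8, 42.8 and 39.96 FPKM in M8, which do not overlap either (log2 fold change 0.26, limma adjusted p = 0.0041). On the chromosome Mrps34 has 763 exon bases in common with Nme3 on its own strand (mean 1.07 FPKM) and 1309 with Mapk8ip3 on the other, and Mapk8ip3 was lower in M8 by 0.36 on the log2 scale. Mrps26, Mrps7 and Mrps5 were the remaining small subunit genes called higher, with log2 fold changes of 0.16, 0.14 and 0.11. The calls of Mrps7 and Mrps5 held in 6 and 8 of the 18 alternative fits (highest limma adjusted p = 0.394 and 0.501). Both were lost without parental replicate 2 or any 1 M8 replicate, and that of Mrps7 also without parental replicate 3. Mrps26 kept its call in 16 fits, and the other 6 higher genes of the small subunit in all 18.

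The genes whose name and place in the ribosome differ did not move together. Mrps30, whose product belongs to the large subunit, had 20.6, 21.4 and 21.9 FPKM in parental cells and 25.4, 25.8 and 26.4 FPKM in M8. The groups lay well apart, with 21.3 ± 0.644 and 25.9 ± 0.468 FPKM (SD, n = 3 each) and a log2 fold change of 0.27 (limma adjusted p = 0.0029). Mrps36 was called lower and is described with the other lower genes. The 3 Mrps18 genes encode homologues of a single bacterial protein, S18, and only Mrps18b was called. Mrps18b went from 70.2, 74.8 and 77.2 FPKM to 94.3, 87.8 and 88.3 FPKM, with a log2 fold change of 0.28 (95% interval 0.17 to 0.39, limma adjusted p = 0.0034). The values of Mrps18c were 102.6, 100.6 and 107.0 FPKM in parental cells and 110.0, 106.1 and 115.7 FPKM in M8, and those of Mrps18a were 69.0, 73.3 and 77.9 FPKM and 76.2, 79.1 and 79.8 FPKM. Both overlapped between the lines, with log2 fold changes of 0.096 (95% interval -0.0055 to 0.20) and 0.094 (95% interval -0.017 to 0.21). The difference between the Mrps18 genes was not tested.

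In the large subunit, Mrpl54 rose most. It encodes a protein found in mitochondrial ribosomes and not in bacterial ones. Its parental values were 82.9, 73.8 and 67.8 FPKM and its M8 values 111, 100.7 and 93.1 FPKM. They did not overlap, although the spread within each line was wide (74.8 ± 7.59 and 101.7 ± 9.06 FPKM, SD, n = 3 each), and the log2 fold change was 0.44 (95% interval 0.26 to 0.62, limma adjusted p = 0.0042). Mrpl17 was among the weakly expressed members, with 6.99, 8.14 and 8.25 FPKM against 10.3, 9.77 and 10.1 FPKM. The log2 fold change of 0.33 (limma adjusted p = 0.0073) understates its ratio of 1.29, because of the 1 added to each value. Mrpl12 encodes the homologue of bacterial L7/L12, the protein of the stalk that contacts the translation factors. It was at 96.9, 103.8 and 103.6 FPKM in parental cells and at 129.6, 127.0 and 120.9 FPKM in M8, a log2 fold change of 0.31 with the lowest adjusted p of the large subunit (limma adjusted p = 0.0016).

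Mrpl3, Mrpl51 and Mrpl20 completed the 6 largest rises of the large subunit, with log2 fold changes of 0.26, 0.24 and 0.24. Mrpl3, the homologue of bacterial L3, had 36.7, 35.0 and 34.9 FPKM in parental cells and 44.9, 45.1 and 38.6 FPKM in M8 (limma adjusted p = 0.014). The values of Mrpl51, a protein without a bacterial homologue, were 53.3, 49.2 and 53.7 FPKM and 61.2, 64.0 and 60.1 FPKM (limma adjusted p = 0.0059). Those of Mrpl20, the homologue of L20, were 83.1, 75.3 and 85.3 FPKM and 96.7, 94.4 and 97.3 FPKM (limma adjusted p = 0.0075). None of these overlapped between the lines. The other 9 large subunit genes called higher were Mrpl57, Mrpl48, Mrpl49, Mrpl9, Mrpl16, Mrpl18, Mrpl32, Mrpl15 and Mrpl27, with log2 fold changes from 0.20 down to 0.15. Of these, Mrpl57, Mrpl48 and Mrpl49 were called in all 18 alternative fits and Mrpl9 in 17. Mrpl18 was called in 14, and not without M8 replicate 2, and Mrpl16 in 13, and not without parental replicate 2 or M8 replicate 1 or 3. Mrpl15 was called in 11 and Mrpl32 in 9, and both calls were lost without parental replicate 1 or 2 or M8 replicate 1 or 2. Mrpl27 was called in 7 fits (highest limma adjusted p = 0.404), and not without parental replicate 2 or 3 or M8 replicate 1 or 3. Of all 24 members called higher, Mrpl27 was the only one whose values overlapped.

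The 4 members called lower changed by less than the leading higher ones. Mrpl55, Mrpl24 and Mrpl23 are homologues of bacterial L31, L24 and L23. Mrpl55 had 16.4, 13.6 and 15.9 FPKM in parental cells and 13.6, 13.3 and 12.6 FPKM in M8, a log2 fold change of -0.20 (limma adjusted p = 0.068). Mrpl24 had 58.7, 65.8 and 68.3 FPKM against 56.7, 58.8 and 53.5 FPKM (log2 fold change -0.18, limma adjusted p = 0.049). In both genes the lowest parental value lay within the range of M8. Mrpl23 had 149.9, 132.4 and 139.9 FPKM against 131.1, 126.4 and 120.4 FPKM, without overlap (log2 fold change -0.16, limma adjusted p = 0.052). Mrps36 was at 44.9, 41.6 and 48.1 FPKM in parental cells and at 40.5, 41.8 and 38.1 FPKM in M8, with an overlap (log2 fold change -0.16, limma adjusted p = 0.076). None of the 4 calls held in all 18 alternative fits. They were lost without the filter on low values, where the adjusted p was 0.144 for Mrpl55, 0.109 for Mrpl24, 0.107 for Mrpl23 and 0.145 for Mrps36. Single samples decided them as well. Mrpl55 was lost without parental replicate 1 or 3 or without any 1 M8 replicate (highest limma adjusted p = 0.183). Mrpl24 was lost without parental replicate 2 or 3 or M8 replicate 1 or 3 (highest 0.152), Mrpl23 without parental replicate 1 or M8 replicate 2 or 3 (highest 0.165), and Mrps36 without parental replicate 1 or 3 or M8 replicate 1 or 3 (highest 0.22). Mrpl24 has 594 exon bases in common with Rrnad1 on the opposite strand, which was lower too (log2 fold change -0.20). The annotation holds pseudogenes named after Mrpl23 and Mrps36, and also after Mrpl48, which was called higher, so reads of these genes may have been split with their copies.

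**Figure D2:**
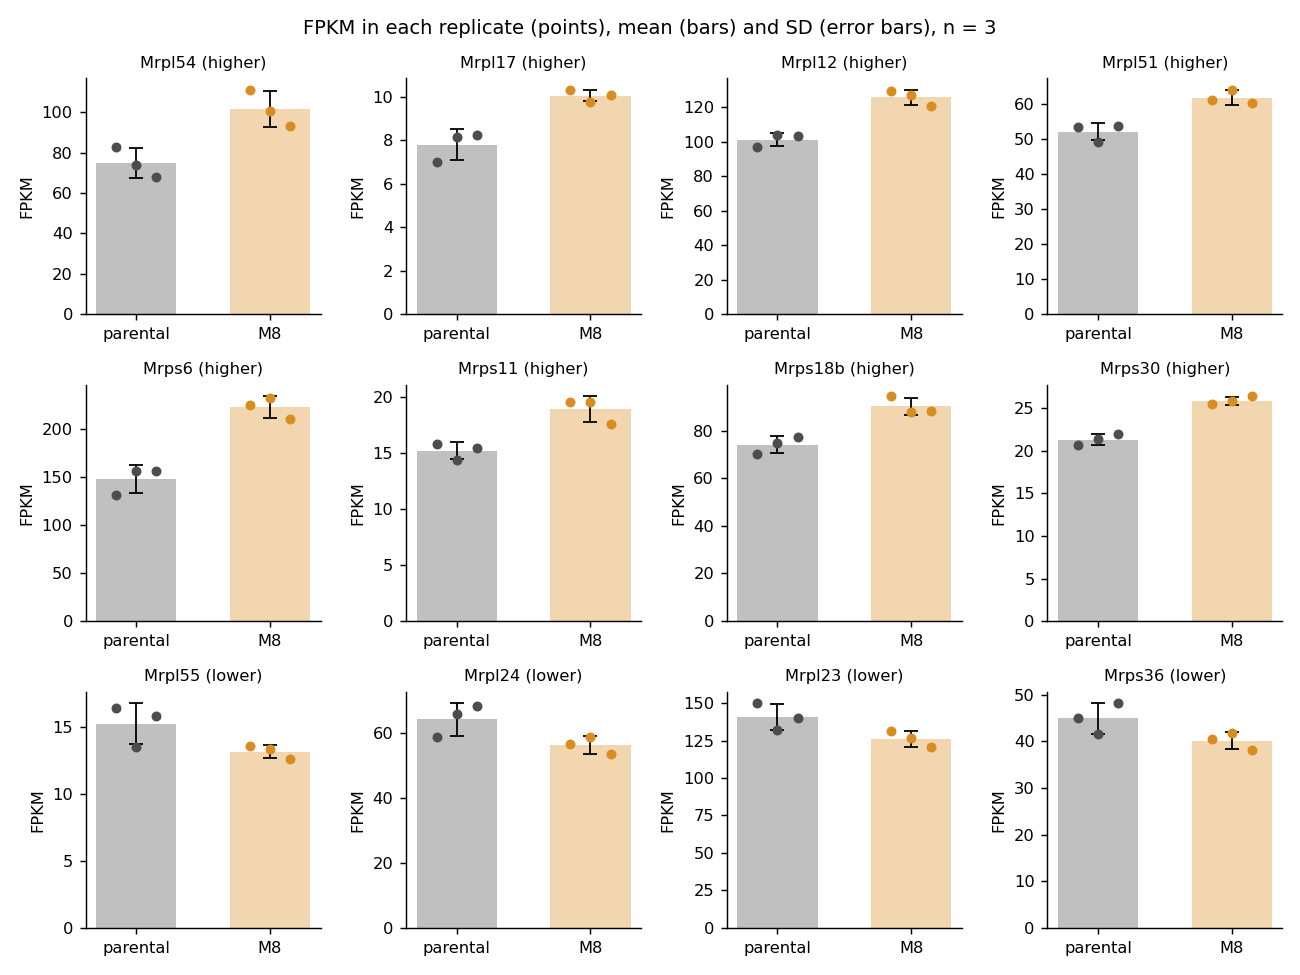
FPKM of 12 members in each sample (points) with the mean (bars, from 0) and the SD (error bars, n = 3), for parental cells (grey) and M8 (orange). In the 8 genes called higher, every M8 point lies above every parental point, and in the 4 called lower the points overlap except in Mrpl23.

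The 49 members that were not called mostly leaned the same way. Of these, 40 had a log2 fold change above 0, within a range from -0.082 to 0.16, and the lowest adjusted p was 0.113. For 45 of the 49, the 95% interval stayed within a 1.2-fold change in either direction, so larger changes were outside the interval for most of them. Over the whole family the mean was higher in M8 in 62 of 77 genes (80.5%), compared with 51.3% of all genes tested and 57.2% of those within the members' range of levels. Members are not independent of each other, and these shares are descriptions.

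Members with and without a bacterial homologue were called at similar rates. Among the 48 with a homologue, 16 were higher and 3 lower, with a median log2 fold change of 0.083. The 29 without one had 8 higher and 1 lower genes and a median of 0.08. In the large subunit the counts were 10 higher and 3 lower of 30 with a homologue, and 5 higher and 0 lower of 18 without. The small subunit had 6 higher and 0 lower of 18 with a homologue, and 3 higher and 1 lower of 11 without.

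The level of the members differed far more between genes than between lines. The mean over the 6 samples ranged from 6.93 FPKM for Mrpl41 to 233 FPKM for Mrpl52, a ratio of 33.5. Next to Mrpl52, the strongest were Mrpl33 (177 FPKM) and Mrpl13 (171 FPKM) in the large subunit, and Mrps21 (202 FPKM), Mrps6 (185 FPKM) and Mrps26 (127 FPKM) in the small subunit. Next to Mrpl41, the weakest were Mrpl39 (8.46 FPKM) and Mrpl17 (8.92 FPKM) in the large subunit, and Mrps27 (13.7 FPKM), Mrps25 (13.7 FPKM) and Mrps11 (17.0 FPKM) in the small subunit. The median level was 42.9 FPKM over the large and 42.5 FPKM over the small subunit genes. By line, the median of the large subunit was 41.1 ± 1.5 FPKM in the parental and 44.9 ± 1.4 FPKM in the M8 samples (SD, n = 3), and that of the small subunit was 43.6 ± 1.8 and 41.2 ± 1.5 FPKM. The median level of the small subunit was thus lower in M8, although the median of its log2 fold changes was above 0. The median member ranked above 78.8% of the genes tested, and 66 of 77 were above the median gene, at 15.4 FPKM. Across members, which are not independent replicates, the log2 fold change had a Pearson correlation of 0.033 with the log2 mean FPKM, 0.11 with the log2 transcript length and 0.11 with the GC content of the transcript (n = 77 each).

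Mrps21, one of the strongest members, was not called although its M8 values lay below the parental ones, at 200.9, 198.6 and 188.6 FPKM against 201.2, 216.3 and 205.0 FPKM (log2 fold change -0.082, 95% interval -0.18 to 0.016). Mrpl52 had 208, 237 and 232 FPKM in parental cells and 252, 250.4 and 215 FPKM in M8, and the values overlapped (log2 fold change 0.08). Mrpl33 and Mrpl13 overlapped as well, with log2 fold changes of -0.065 and 0.11. Mrpl41, the weakest member, had 6.65, 6.77 and 6.44 FPKM against 7.36, 7.04 and 7.34 FPKM, without overlap but not called (log2 fold change 0.11, 95% interval -0.014 to 0.24).

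The summed FPKM of the large subunit genes was 2619, 2627 and 2765 in parental cells and 2855, 2874 and 2768 in M8. The highest parental and the lowest M8 sample were thus almost level. The small subunit genes summed to 1565, 1599 and 1678 FPKM in parental cells and to 1775, 1785 and 1735 FPKM in M8. The ratio of the sums was 1.674, 1.643 and 1.648 in parental cells and 1.609, 1.610 and 1.595 in M8, which do not overlap. The shift rested on a single gene. Without Mrps6 the small subunit summed to 1434, 1442 and 1522 FPKM and to 1550, 1553 and 1525 FPKM, and the ratio was 1.83, 1.82 and 1.82 in parental cells and 1.84, 1.85 and 1.81 in M8, with the lines overlapping. As a share of the FPKM of all genes, the members made up 0.705%, 0.687% and 0.709% in parental cells and 0.735%, 0.740% and 0.723% in M8. In bulk samples, more RNA per cell and a different mixture of cells cannot be told apart.

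**Figure D3:**
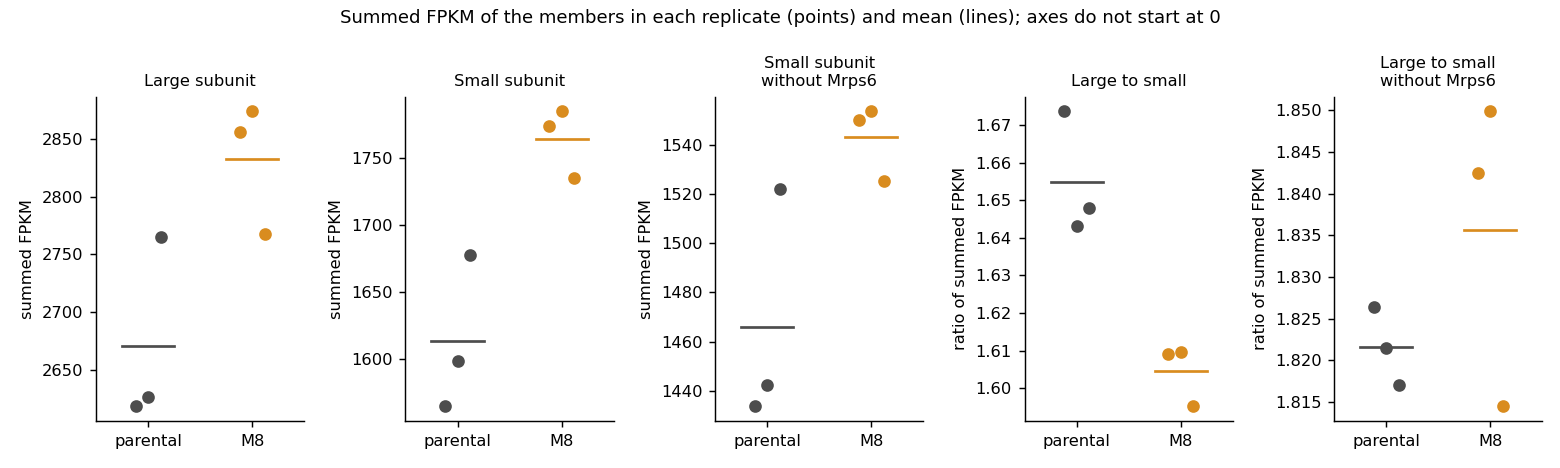
Summed FPKM of the 48 large and 29 small subunit genes in each sample (points) with the mean (lines), and the ratio of the large to the small sum, with and without Mrps6. The axes do not start at 0. The ratio is lower in all M8 samples (1.595 to 1.610) than in the parental ones (1.643 to 1.674), and the lines overlap once Mrps6 is left out.

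By the median over the members, parental replicate 3 was nearer to M8 than the other parental samples. The median deviation of its members from the parental mean was 0.05 on the log2 scale, against -0.027 and -0.022 in replicates 1 and 2 and 0.088, 0.098 and 0.081 in the M8 samples, while the median over all genes deviated by at most 0.01 in any sample. Without this sample 32 members were higher and 1 was lower, beside 19.8% and 14.1% of all genes, and the median rose to 0.10. The fewest higher calls with a sample left out were 18, without M8 replicate 1, where 15.0% of all genes were higher as well. The median coefficient of variation between the samples of a line was 5.58% in parental cells and 4.03% in M8 over the members, 5.62% and 4.42% over all genes tested, and 4.83% and 3.75% over the genes within the members' range of levels.

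**Figure D4:**
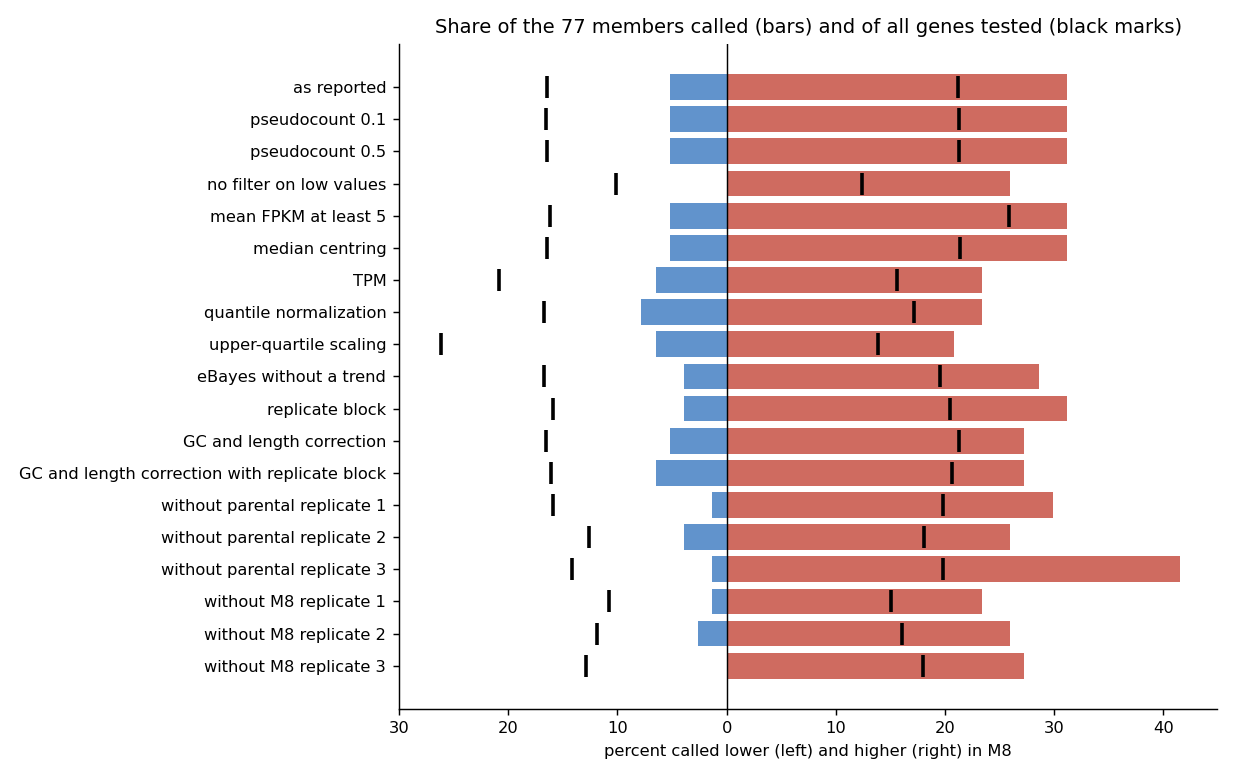
Percent of the 77 members called higher (red, to the right) and lower (blue, to the left) in M8 under each way of processing the values, with the percent of all genes tested as black marks. In each row the red bar passes its mark and the blue bar falls short of its mark.

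The genes of the family are spread over 17 chromosomes, with at most 10 on one of them, and many start close to the start of another gene. In the GENCODE M21 annotation of GRCm38, 33 of the 77 members (42.9%) had a protein-coding gene that starts within 1000 bases on the opposite strand, compared with 1813 of 9893 tested protein-coding genes (18.3%). For 29 of them the neighbor was tested under its annotated symbol, counting Mrps11 and Mrpl46 as neighbors of each other. Of these neighbors, 10 were higher and 2 lower in M8, beside 21.2% and 16.5% of all genes tested. The share among neighbors of other genes was not calculated. Twnk, the neighbor of Mrpl43, was not counted, since the data hold it under its older symbol Peo1 (log2 fold change -0.033, not called). Of the 13 higher members with a tested neighbor, 4 had a neighbor that was higher and 0 had one that was lower. These were Mrpl54 with Apba3 (log2 fold change of the neighbor 0.23), Mrpl51 with Ncapd2 (0.35), Mrpl57 with Ska3 (0.19) and Mrpl32 with Psma2 (0.24). Among the 16 tested neighbors of members that were not called, 6 were higher and 2 lower. Across the 27 pairs with a neighbor outside the family, the log2 fold changes had a Pearson correlation of 0.31, and the 2 genes of a pair may share reads as well as a promoter region. The neighbors were named after their values were seen.

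Mrps11 and Mrpl46 are neighbors within the family. They start head to head on chromosome 7, Mrps11 on the plus strand (78783119 to 78792989) and Mrpl46 on the minus strand (78775236 to 78783531), and their first exons have 173 bases in common. Mrpl46 had 18.3, 17.1 and 20.3 FPKM in parental cells and 21.9, 21.2 and 19.3 FPKM in M8. These overlapped, and it was not called (log2 fold change 0.16, limma adjusted p = 0.127), whereas Mrps11 was called with 0.30.

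In all, 32 members have exon bases in common with another annotated gene. Of these, 15 (46.9%) were higher in M8 and 1 was lower, with a median log2 fold change of 0.14. Of the 45 without such overlap, 9 (20%) were higher and 3 were lower, with a median of 0.056. This split was made after the values were seen. Among all genes tested 21.2% were higher and 16.5% lower, and the same split was not made for them. The libraries were stranded, but the sources used here do not say whether strand was used when FPKM values were calculated, and the part of shared reads in these counts was not tested.

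Regulators of mitochondrial genes were measured too. Of 9 regulators of mitochondrial biogenesis, 3 were higher and 1 was lower in M8, and their median log2 fold change was 0.12. Nrf1, a transcription factor of many nuclear genes for mitochondrial proteins, had 14.2, 15.0 and 14.8 FPKM in parental cells and 18.6, 17.2 and 17.6 FPKM in M8 (log2 fold change 0.26, limma adjusted p = 0.0056). Pprc1, a coactivator, was higher by 0.19 (limma adjusted p = 0.012) and Yy1 by 0.18 (limma adjusted p = 0.047). Gabpa, the DNA-binding subunit of the ETS factor GABP, was lower by 0.14 on the log2 scale (limma adjusted p = 0.068). The calls of Yy1 and Gabpa were lost with single samples left out. For Yy1 this held without parental replicate 1 or M8 replicate 1 or 2 (highest limma adjusted p = 0.151), and for Gabpa without parental replicate 1 or 2 or any 1 M8 replicate (highest 0.169). The call of Yy1 was also lost with upper-quartile scaling. That of Gabpa was also lost with values corrected for GC content and length, with and without the replicate number as a block.

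Some proteins of the mitochondrial ribosome go under other names. Of 6 such genes, Ptcd3 and Aurkaip1 were higher (log2 fold change 0.16 each) and 0 were lower, and the median was 0.10. Without parental replicate 1 or M8 replicate 1 or 2, Aurkaip1 was not called (highest limma adjusted p = 0.216). Of the factors that assemble the ribosome or mature its RNA, 4 of 24 were higher and 2 lower, with a median of 0.057. Wbscr16, also known as Rcc1l, rose most, from 19.97, 18.9 and 18.9 FPKM to 23.2, 24.1 and 23.5 FPKM (log2 fold change 0.28, limma adjusted p = 0.0026). Rpusd4, a pseudouridine synthase, and the GTPase gene Noa1 were higher by 0.26 and 0.25, and Rpusd4 was not called without M8 replicate 1 (limma adjusted p = 0.118). Tfb1m, which methylates the small ribosomal RNA, had 8.14, 7.73 and 10.01 FPKM in parental cells and 6.09, 6.18 and 8.18 FPKM in M8. Its values overlapped (log2 fold change -0.30, limma adjusted p = 0.078). Tfb1m was called in 12 of the 18 alternative fits, and not without parental replicate 3 or M8 replicate 1 or 2 (highest limma adjusted p = 0.244). Mterf4 was lower by 0.18 on the log2 scale. It was called in 12 of the 18 fits too, and not without parental replicate 2 or any 1 M8 replicate (highest limma adjusted p = 0.195).

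Of 16 mitochondrial translation factors, 4 were higher and 1 was lower, with a median log2 fold change of 0.034. The change was largest in Pdf, which encodes the enzyme that removes the formyl group from new mitochondrial proteins. It had 11.8, 12.3 and 11.2 FPKM in parental cells and 16.6, 15.3 and 14.7 FPKM in M8, a log2 fold change of 0.37 (limma adjusted p = 0.0024). Tsfm, an elongation factor, was higher by 0.18 and Gfm1, another, by 0.15. Gfm1 was called in 13 of the 18 alternative fits (highest limma adjusted p = 0.253). Its call was lost with TPM, quantile normalization and upper-quartile scaling, and without parental replicate 3 or M8 replicate 1. Tsfm lost its call with quantile normalization alone (limma adjusted p = 0.107). Mtif2, which encodes the initiation factor that brings the first tRNA to the small subunit, moved the other way, from 11.3, 12.05 and 11.7 FPKM to 9.36, 9.08 and 9.36 FPKM (log2 fold change -0.30, limma adjusted p = 0.0033). Both Pdf and Mtif2 were called in all 18 alternative fits.

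Genes for the copying and transcription of mitochondrial DNA did not lean upwards. Of 10, Tfam was higher (log2 fold change 0.17, limma adjusted p = 0.040), Mterf1a and Mterf1b were lower (-0.31 and -0.48), and the median was -0.037. Tfam encodes the factor that packs mitochondrial DNA. It was not called with TPM or upper-quartile scaling, or without parental replicate 2 or M8 replicate 1 (highest limma adjusted p = 0.135). Mterf1a and Mterf1b are copies of each other at 2.52 and 1.35 FPKM. Mterf1b was not called without the filter on low values, or without parental replicate 1 or M8 replicate 3 (highest limma adjusted p = 0.138). Genes encoded by mitochondrial DNA itself were not analysed here.

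Set beside the other ribosome of the cell, the direction differed. Of 74 cytosolic ribosomal protein genes, 3 were higher and 20 were lower in M8, and their median log2 fold change was -0.075. The largest changes among those called were the rise of Rpl30 (0.85), from 46.8, 56.9 and 71.6 FPKM to 119.8, 93.0 and 103.5 FPKM, and the fall of Rps27 (-0.24). Both genes had low values for this list, with means of 82.0 and 8.96 FPKM against a list median of 1754 FPKM. Of 99 nuclear genes named for the respiratory chain and ATP synthase, a list that holds assembly factors beside subunits, 37 (37.4%) were higher and 4 (4.04%) lower, with a median of 0.085. Ndufa4 rose by 0.33 and Sdhaf4 and Ndufs8 by 0.30 each on the log2 scale. Atp5s, a weakly expressed gene, moved most in this list, from 4.05, 3.92 and 3.84 FPKM to 2.19, 2.73 and 1.46 FPKM (log2 fold change -0.68, limma adjusted p = 0.0063), and Ndufb6 and Cox7a2l fell by 0.25 and 0.21. The members and the respiratory chain genes thus had medians of 0.082 and 0.085, and no test of the difference between lists was made.

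**Figure D5:**
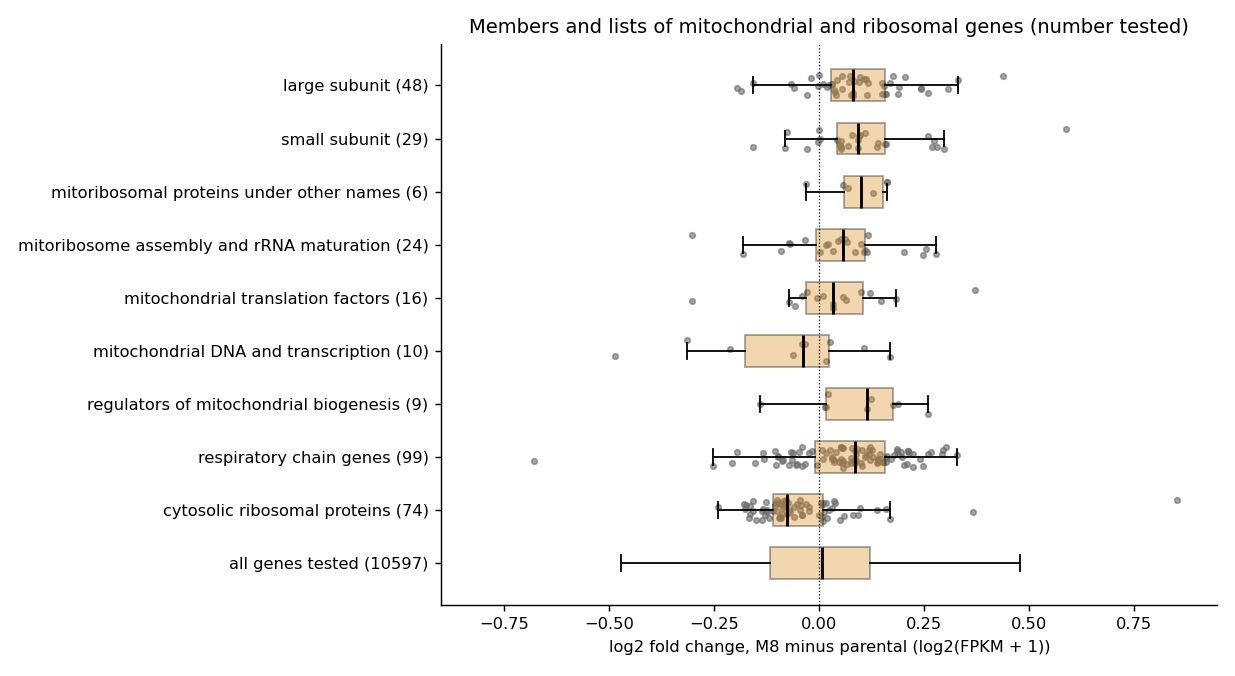
Log2 fold change (M8 minus parental) of the large and small subunit genes and of each list, as points with a box for the quartiles, a line for the median and whiskers to the last gene within 1.5 box lengths. All genes tested are shown as a box with whiskers and without points. The medians of both subunits (0.08 and 0.09) lie near that of the respiratory chain genes (0.085) and above that of the cytosolic ribosomal protein genes (-0.075).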

How the data were processed

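RNA from 3 parental and 3 M8 samples was sequenced from stranded mRNA libraries in single reads. The authors aligned these reads by TopHat (build mm10), calculated FPKM values with Cufflinks and deposited 1 value for each gene symbol and sample. The submitters' processing notes name TopHat2 2.1.1, Bowtie2 2.2.8, SAMtools 0.1.18 and Cuffdiff 2.2.1, and the gene annotation is not given in the sources used here. The number of reads behind an FPKM value is unknown, so depth is given only relative to the first parental sample. The read counts that the authors used for their own differential expression in iDEP were not used here. Groups came from the sample labels, and no sample was left out.

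The 2 lines were compared with limma 3.58.1 (lmFit, then eBayes with its trend option, R 4.3.3). The values were log2(FPKM + 1), the fit covered 10597 genes whose mean reached 1 FPKM and had no covariates, and p-values were adjusted over all these genes by the Benjamini-Hochberg method. The added 1 shrinks the fold changes of weakly expressed genes. Genes were called at an adjusted p below 0.1, the FDR of the study. An exact two-sided permutation test of a single gene cannot go below p = 0.1 with 3 samples against 3, and 29 members were at that value. The members, the lists, the test and the alternatives were chosen with earlier results of these data known. The rule for named genes took the 6 called members with the largest rise and the 6 with the largest fall in each subunit, the 3 strongest and 3 weakest in each, the members nearest the minimum of 1 FPKM on each side, the Mrps18 genes, Mrps30, Mrps36 and Mr1, and at most 3 called genes of each list in each direction. No member lay below that minimum. Any other gene was chosen after its values were seen. Positions, overlaps and neighbors came from GENCODE M21, where all 77 members were found, and promoters from RefSeq. Tables were made in Python 3.11.15 with pandas 2.3.3, and figures with matplotlib 3.10.9.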

Additional observations from a re-analysis of the deposited data

How the results depend on the processing

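The median log2 fold changes of both subunits stayed above 0 in all 18 alternative fits. They moved to 0.0449 (large) and 0.0565 (small) with TPM, to 0.0254 and 0.0155 with quantile normalization, to 0.0208 and 0.032 with upper-quartile scaling and to 0.0507 and 0.0628 with the GC and length correction. Of the 24 higher calls, 15 held in all 18 fits, and of the 4 lower calls 0 did. Each of these calls kept its direction. A fold change of at least 1.2 on the log2(FPKM + 1) scale left 3 large subunit genes called (3 higher, 0 lower) and 5 small ones (5 higher, 0 lower), beside 1579 of all 10597 genes tested. The counts of lower genes were small and moved most. They were 0 and 0 in the large and small subunit without a filter on low values and 1 and 0 at an adjusted p below 0.05. In the small subunit the count was 2 with TPM, with quantile normalization, with upper-quartile scaling and with the GC and length correction with the replicate block, and 0 with eBayes without a trend or with genes sorted by their place in the ribosome. With each replicate left out in turn, the large subunit had 0 to 2 lower genes and the small subunit 0 to 1. Over all genes, 1142 were lower without M8 replicate 1 (1745 with all samples). For the other counts of each subunit, every value lay within 1.5 times that reported.

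Samples with the same number did not deviate together in a shared direction (correlations 0.1, -0.106 and -0.033). In each line only replicate 1 correlated best with its own number. With 3 samples in each line, these correlations cannot show whether the numbers pair the samples. With the replicate number as a block, 15 large subunit genes were higher and 3 lower, and 9 small subunit genes were higher and 0 lower. Mrps5 and Mrps36 lost their calls in this fit, so these 9 are not all the same genes as without the block. The GC and length correction covered 99.5% of the genes tested. The cause of these shifts was not tested. The M8 samples were less deep than the parental ones, and FPKM values do not show how many reads stand behind each value of a member.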
